A study of Mus musculus with 23 samples.

Results

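The 10 mouse genes described here act in phospholipid hydrolysis and eicosanoid metabolism, and were followed across 5 groups of brain macrophages sorted 1 day after an experimental stroke. They were taken by symbol from a table of read counts for 33280 genes, and all 10 were present. Pla2g2d, Pla2g4a and Pla2g15 encode phospholipases, Ptgs1 and Ptgs2 the cyclooxygenases, Hpgds and Hpgd a prostaglandin D2 synthase and a prostaglandin-degrading dehydrogenase, and Alox5, Alox5ap and Ltc4s the enzymes and helper protein of leukotriene synthesis.

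The mice carried Ccr2creERT2/+ R26tdT/tdT, so that cells with an active Ccr2 promoter during tamoxifen, and the progeny of those cells, express the red protein tdTomato (tdT). They received vehicle (CTL, a cyclodextrin solution) or BLZ945, which blocks the CSF-1 receptor and thereby removes most macrophages, at 200 mg per kg by gavage for 7 days, then tamoxifen at 2 mg per day in 3 injections from the last gavage day onwards. The stroke was set 8 weeks after depletion, in adult mice, by an injection of thrombin into the middle cerebral artery, and CD45+ CD11b+ cells negative for Ly6C, Ly6G and CD11c were sorted 1 day later from brain without choroid plexus. Microglia (MG) were the CD206- cells, and subdural CNS-associated macrophages (sdCAMs, the perivascular and leptomeningeal macrophages) the CD206+ cells. This gave 5 libraries each of MG CTL, of MG BLZ945, of tdT- CTL sdCAMs and of tdT- BLZ945 sdCAMs, and 3 of tdT+ BLZ945 sdCAMs (F2, F3 and M2). Libraries are named by sex and number (F1, F2, F3, M1, M2), and one name stands for the same animals in MG and sdCAM libraries of one treatment. The tdT- sort keeps every sdCAM without the label, whether or not it has a monocyte ancestor. CTL libraries hold 1 animal each, whereas BLZ945 libraries pool 2 animals by their names, except F2 with 1, and 1 animal number occurs in the names of both F2 and the M1 pool. No group without stroke was analysed here, so none of the levels can be set against an uninjured brain. Below, a brain means the libraries that share a name within a treatment, which for most BLZ945 names come from pooled animals. Counts of brains are thus counts of library pairs. Because of the shared animal number, the BLZ945 pairs may not all be independent.

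Arachidonic acid is released from membrane phospholipids by phospholipases A2, above all by the cytosolic enzyme encoded by Pla2g4a. Cyclooxygenases turn it into prostaglandin H2, from which terminal synthases make prostaglandins and thromboxane, while 5-lipoxygenase with its activating protein makes leukotriene A4, the precursor of leukotriene B4 and of the cysteinyl leukotrienes. Microglia are known for cyclooxygenase-1, and many tissue macrophages for leukotriene synthesis.

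Each library held 9433960 to 13276081 counts, and levels are given as CPM (read counts per 1000000 of the library total) after TMM scaling over the 23 libraries. A count of 3, used here as the floor, equals 0.230 to 0.334 CPM. The sorts were separated by their markers: the microglial gene P2ry12 lay between 2927 and 5380 CPM in MG and between 241 and 440.2 CPM in sdCAM libraries, and 5 sdCAM genes (Mrc1, Pf4, Lyve1, Cd163, Ms4a7) summed to 8275 to 14061 CPM in sdCAM and 9.89 to 47.6 CPM in MG libraries. The 3 neuron markers (Snap25, Syt1, Rbfox3) summed to 4.19 to 12.0 CPM in MG and 36.02 to 108 CPM in sdCAM libraries, and the 3 astrocyte markers (Aqp4, Gfap, Slc1a2) to 1.61 to 5.32 CPM and 8.18 to 47.8 CPM. The part of these cells in the differences between the sorts was not tested. Differences are log2 fold changes of edgeR's quasi-likelihood test with their standard error (SE), and a gene was called at a Benjamini-Hochberg adjusted p under 0.05 over all genes tested. In such bulk libraries, fewer cells of a type and less RNA per cell cannot be told apart.

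The 150 bases before the transcription start are shown for 5 genes: Pla2g2d, which differed most between the sorts, Ptgs1 and Hpgds, which were both lower in tdT+ sdCAMs than in microglia, and the chromosomal neighbours Pla2g4a and Ptgs2. They come from RefSeq on GRCm38.p6, and the set of promoters used here held 9 of the 10 genes, without Alox5ap. They are written 5′ to 3′ on the strand of the gene, with matches to a searched motif in capitals.
Pla2g2d, chr4:138775585-138775734, plus strand: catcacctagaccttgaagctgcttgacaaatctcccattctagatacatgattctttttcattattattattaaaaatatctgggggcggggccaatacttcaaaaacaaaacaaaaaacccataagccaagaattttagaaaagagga
Ptgs1, chr2:36230276-36230425, plus strand: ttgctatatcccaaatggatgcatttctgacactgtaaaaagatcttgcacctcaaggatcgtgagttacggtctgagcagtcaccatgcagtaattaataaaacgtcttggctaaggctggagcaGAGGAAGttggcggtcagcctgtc
Hpgds, chr6:65144731-65144880, minus strand: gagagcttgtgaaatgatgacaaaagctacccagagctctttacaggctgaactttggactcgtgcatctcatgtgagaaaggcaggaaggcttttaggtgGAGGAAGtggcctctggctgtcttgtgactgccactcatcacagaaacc
Pla2g4a, chr1:149961291-149961440, minus strand: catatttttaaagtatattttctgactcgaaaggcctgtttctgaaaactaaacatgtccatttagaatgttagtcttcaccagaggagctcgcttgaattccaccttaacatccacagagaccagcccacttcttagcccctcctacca
Ptgs2, chr1:150099881-150100030, plus strand: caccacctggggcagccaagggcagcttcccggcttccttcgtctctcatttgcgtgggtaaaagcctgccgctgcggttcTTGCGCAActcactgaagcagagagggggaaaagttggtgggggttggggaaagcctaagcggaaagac

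The motifs were chosen after these sequences had been looked at, and were searched on both strands over the 250 bases before each start. The ETS core GAGGAAG, the core of the sites bound by PU.1 and related factors, stood at -24 to -18 in Ptgs1 and at -49 to -43 in Hpgds, that is in 2 of 9 member promoters against 10.4% of all 27025 promoters. The palindrome TTGCGCAA, a C/EBP site, stood at -69 to -62 in Ptgs2, in 1 of 9 against 0.170%. Within these 250 bases none of the 9 held TGACGTCA (1.62% of all promoters), ACGTCA, which lies within it (6.56%), CACGTG (6.05%), TGANTCA (6.87%) or TATAAA (13.0%). Bases past the start were not searched, and the window depends on the start that RefSeq gives. A motif missing here can therefore still lie close to the gene. A match is a run of letters and no evidence of binding.

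**Figure D1:**
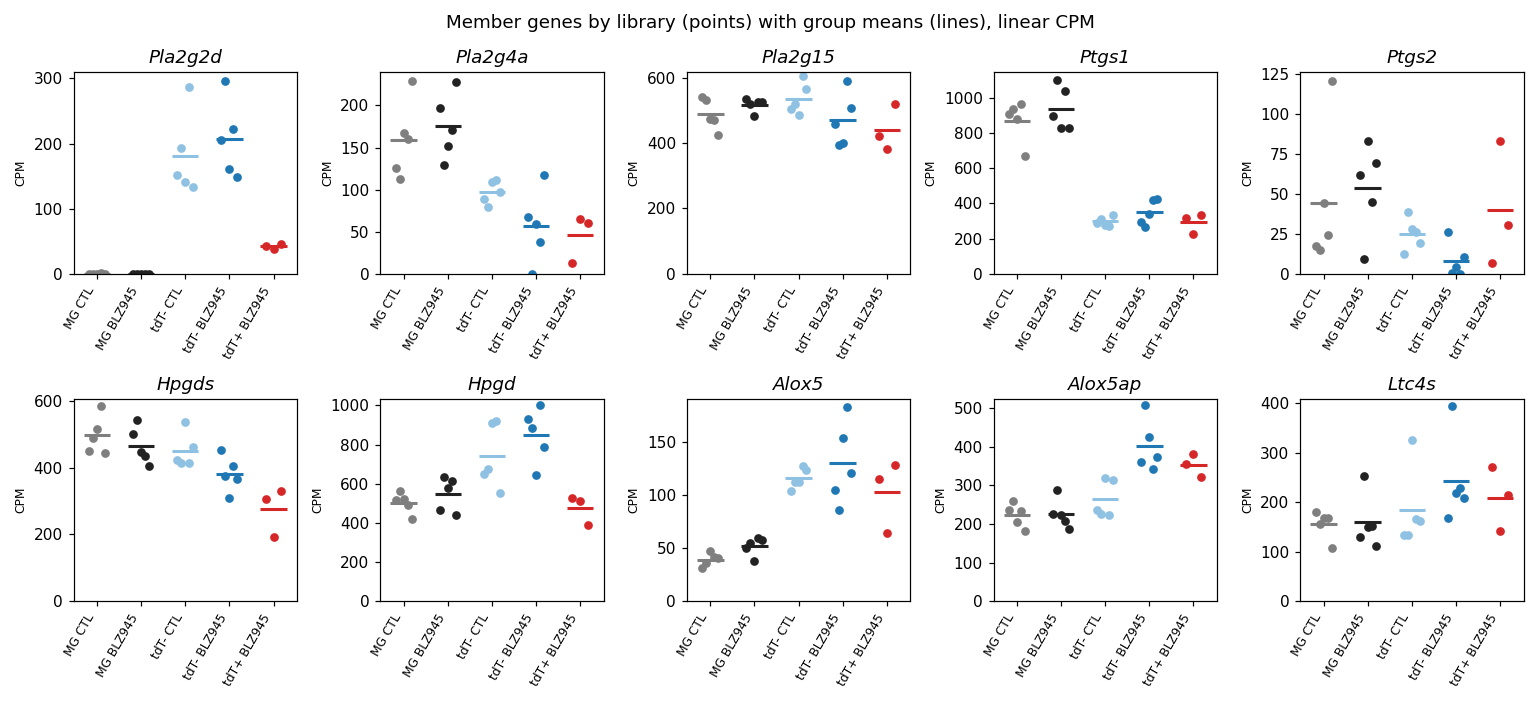
Levels of the 10 genes in CPM (y axis, linear, from 0) in each library (points) with the mean of each group (lines), for the 5 groups on the x axis. Pla2g2d was near 0 in all MG libraries, at 133 to 295 CPM in tdT- sdCAMs and at 37.8 to 45.7 CPM in tdT+ sdCAMs, whereas Ptgs1 was at 669.9 CPM or more in all MG libraries and at most 424 CPM in sdCAM libraries.

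The first question was how sdCAMs differ from microglia of the same brains. In CTL mice, the contrast of tdT- sdCAMs with MG called 4 of the 10 genes, against 25.6% of all 12697 genes tested. Pla2g2d, Hpgd and Alox5 were called higher (15.3% of all genes) and Ptgs1 was called lower (10.3%). In BLZ945 mice, 7 of the 10 were called between tdT- sdCAMs and MG, against 32.4% of all genes: Pla2g2d, Hpgd, Alox5 and Alox5ap higher (18.3%) and Pla2g4a, Ptgs1 and Ptgs2 lower (14.1%). Between tdT+ sdCAMs and MG, 5 of the 10 were called, against 25.2% of 13790 genes: Pla2g2d, Alox5 and Alox5ap higher (14.6%) and Ptgs1 and Hpgds lower (10.6%). The median log2 difference of the 10 genes was 0.19, 0.25 and -0.21 in the 3 comparisons, next to -0.01, -0.02 and -0.01 over all genes tested. The comparisons of BLZ945 sdCAMs share their MG BLZ945 libraries.

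Pla2g2d, a secreted phospholipase A2, was an sdCAM gene. It stood at 152, 193, 141, 287 and 133 CPM in tdT- CTL F1, F2, F3, M1 and M2. In tdT- BLZ945 it stood at 206, 295, 161, 222 and 149 CPM, and in tdT+ BLZ945 F2, F3 and M2 at 42.6, 37.8 and 45.7 CPM. No MG BLZ945 library held a read of it, and among MG CTL libraries M1 held 10 counts (0.854 CPM), M2 held 1 and the others 0. sdCAM and MG libraries thus did not overlap in any of the 3 comparisons. Against the floor of MG BLZ945, tdT- BLZ945 sdCAMs were at least 779-fold higher and tdT+ sdCAMs at least 158-fold higher. In CTL mice the log2 fold change was 9.84 (SE 0.56; adjusted p = 3.04e-10, edgeR), and it was 12.46 without MG CTL M1.

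Pla2g2d was also lower in tdT+ than in tdT- sdCAMs. In BLZ945 mice it was 4.96-fold lower in tdT+ than in tdT- sdCAMs, a log2 fold change of -2.31 (SE 0.29; adjusted p = 0.00117, edgeR), and it was lower in 3 of 3 brains with both sorts. With the shared brain as a block the log2 fold change was -2.21 and the call was lost (adjusted p = 0.0794, edgeR). Against tdT- CTL sdCAMs, tdT+ sdCAMs were 4.33-fold lower (log2 fold change -2.11, SE 0.29; adjusted p = 0.00188, edgeR). Both comparisons use the same 3 tdT+ libraries. By edgeR it was the only one of the 10 genes called in either, where 0.206% and 0.283% of 13076 genes were called. DESeq2 and the edgeR model of all 23 libraries also called Hpgd against tdT- BLZ945 and Hpgds against tdT- CTL. The tdT- groups overlapped, with means of 181 ± 63.7 CPM (SD, n = 5) in CTL and 207 ± 58.1 CPM (SD, n = 5) in BLZ945 mice. The 5 dendritic cell markers (Flt3, Zbtb46, Ccr7, Xcr1, Cd209a) summed to 220 to 780 CPM in tdT- CTL, 31.2 to 199.6 CPM in tdT- BLZ945 and 34.8 to 84.5 CPM in tdT+ sdCAMs, with Xcr1 at 0 in each of these groups and Ccr7 also at 0 in tdT+. Most of the sum was Cd209a, with means of 441 CPM in tdT- CTL, 86.6 CPM in tdT- BLZ945 and 46.2 CPM in tdT+, whereas Flt3 had its lowest of these means in tdT- CTL (1.40, 5.16 and 3.87 CPM). The sort was gated on CD11c- cells, a gate that leaves out most dendritic cells, and the part of these cells in the Pla2g2d level was not tested. On the chromosome Pla2g2d lies between Pla2g2f and Pla2g5. Pla2g5 did not pass 3.36 CPM and Pla2g2e 0.698 CPM in any library.

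Pla2g4a, the cytosolic phospholipase A2, had its higher values in microglia. MG CTL libraries held 126, 113, 167, 160.0 and 228 CPM, and MG BLZ945 libraries 197, 129.8, 152, 171 and 228 CPM. In tdT- CTL sdCAMs it stood at 88.9, 79.0, 109, 112 and 97.7 CPM, in tdT- BLZ945 sdCAMs at 67.2, 0.108, 58.9, 37.6 and 117 CPM, and in tdT+ sdCAMs at 12.9, 65.3 and 60.1 CPM. In each treatment all MG libraries lay above all sdCAM libraries, and tdT- BLZ945 F2 held a single count. The log2 fold change of tdT- BLZ945 sdCAMs against MG was -1.63 (SE 0.57; adjusted p = 0.0333, edgeR). This call was lost in 5 of the 10 fits that left out 1 library (MG F1, M1 or M2, or tdT- F3 or M1; largest adjusted p = 0.0709, edgeR). It was also lost with only the 2 groups compared in the fit (adjusted p = 0.158, edgeR) and with DESeq2 (adjusted p = 0.0576). In CTL mice it was not called, but a call was made with only those groups in the fit and without the BLZ945 F2 libraries. The corresponding value for tdT+ sdCAMs was -1.93 (SE 0.73) and was not called (adjusted p = 0.0538, edgeR), but with the shared brain as a block it was -2.23 and called (adjusted p = 0.0409, edgeR). Without the BLZ945 F2 libraries of 1 animal, a choice made after seeing the data, the values were -1.40 (adjusted p = 4.83e-04, edgeR) for tdT- and -1.59 (adjusted p = 0.00182, edgeR) for tdT+ sdCAMs. tdT- BLZ945 F2 had 13244 genes with a count, within the 12733 to 14460 of the other tdT- BLZ945 libraries.

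Pla2g15, a lysosomal phospholipase, was measured in every library. Its group means ran from 441 ± 70.3 CPM (SD, n = 3) in tdT+ to 536 ± 49.0 CPM (SD, n = 5) in tdT- CTL sdCAMs. Each group overlapped its neighbour in the order of the means, and no comparison reached an unadjusted p under 0.05.

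Ptgs1, which encodes cyclooxygenase-1, was called lower in sdCAMs than in microglia in all 3 comparisons. MG CTL libraries held 906, 933, 877, 964 and 669.9 CPM, and MG BLZ945 libraries 898, 1103, 827, 1037 and 827 CPM. The sdCAM libraries held 291, 314, 277, 272.9 and 335 CPM in tdT- CTL, 295, 264, 341, 421 and 424 CPM in tdT- BLZ945, and 318, 225 and 337 CPM in tdT+. MG and sdCAM libraries did not overlap, and Ptgs1 was lower in the sdCAMs of every brain. The log2 fold change was -1.54 (SE 0.14; adjusted p = 2.23e-08, edgeR) in CTL mice. It was -1.42 (SE 0.14; adjusted p = 7.17e-08, edgeR) for tdT- and -1.68 (SE 0.18; adjusted p = 1.25e-07, edgeR) for tdT+ sdCAMs of BLZ945 mice. Platelets also use cyclooxygenase-1, and 5 platelet markers (Ppbp, Itga2b, Gp9, Gp1bb, Gp5) summed to 15.7 to 28.6 CPM in MG and 0 to 118 CPM in sdCAM libraries, with 1 or 2 of Itga2b, Gp1bb and Gp5 at 0 in each group. The median sum was higher in sdCAMs than in MG of CTL mice (91.1 against 26.6 CPM) and lower in BLZ945 mice (5.06 CPM in tdT- and 3.16 CPM in tdT+ sdCAMs against 20.7 CPM in MG). Nearly all of the MG sum was Gp9, at 15.5 to 28.0 CPM in MG and at most 2.91 CPM in any sdCAM library. Ppbp went the other way, at most 0.963 CPM in MG and at a mean of 66.3 CPM in tdT- CTL, 21.0 CPM in tdT- BLZ945 and 14.4 CPM in tdT+ sdCAMs. The part of platelets in the Ptgs1 level was not tested.

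Ptgs2, which encodes the inducible cyclooxygenase-2, was scattered within every group. It stood at 17.3, 14.6, 44.4, 24.5 and 120.5 CPM in MG CTL and at 62.1, 9.30, 83.4, 44.7 and 69.2 CPM in MG BLZ945. In tdT- CTL sdCAMs it stood at 12.4, 38.8, 28.1, 26.1 and 19.4 CPM, in tdT- BLZ945 at 26.5, 0.216, 4.04, 0 and 10.2 CPM, and in tdT+ at 6.99, 83.2 and 30.4 CPM. In tdT- BLZ945, 3 of 5 libraries lay below the lowest MG library, and the groups overlapped. The log2 fold change of tdT- BLZ945 sdCAMs against MG was -2.71 (SE 0.89; adjusted p = 0.0236, edgeR), with lower values in 5 of 5 brains. It was -3.89 without tdT- BLZ945 F1 and -3.84 with the brain as a block, and the call was lost without MG F3 or tdT- F3 (adjusted p = 0.0509 and 0.0520, edgeR) and with only the 2 groups compared in the fit (adjusted p = 0.0947, edgeR). The 5 monocyte markers (Ly6c2, Ccr2, Plac8, Chil3, Vcan) summed to 217 CPM in tdT- BLZ945 F1 and 99.8 CPM in M1, and to 0 to 22.8 CPM in the other tdT- BLZ945 libraries. They summed to 7.18 to 26.5 CPM in tdT- CTL, 8.23 to 45.7 CPM in tdT+, with Chil3 at 0, and 3.72 to 17.3 CPM in MG libraries. The sort was gated on Ly6C- cells, which leaves out classical monocytes, and Ly6c2 reached at most 8.79 CPM. The part of monocytes in the Ptgs2 level, and in the calls of Hpgds and Ltc4s that also turn on tdT- BLZ945 F1, was not tested. Ptgs2 was higher in tdT+ than in tdT- sdCAMs in 3 of 3 brains, by 1.48 to 4.06 on the log2(CPM + 1) scale, without reaching an unadjusted p under 0.05 in the fit.

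Hpgds, the hematopoietic prostaglandin D2 synthase, and Hpgd, 15-hydroxyprostaglandin dehydrogenase, which inactivates prostaglandins, were abundant in every sort. Hpgds stood at 444 to 586 CPM in MG CTL, 404 to 542 CPM in MG BLZ945, 414 to 538 CPM in tdT- CTL and 309 to 453 CPM in tdT- BLZ945 libraries, and at 307, 191 and 329 CPM in tdT+ F2, F3 and M2. All tdT+ libraries lay below all MG libraries, with a log2 fold change of -0.76 (SE 0.17; adjusted p = 0.00143, edgeR). They also lay below all tdT- CTL libraries (-0.72, SE 0.19), without a call (adjusted p = 0.209, edgeR), and overlapped tdT- BLZ945 (-0.49, SE 0.19; adjusted p = 0.617, edgeR). The difference between tdT- BLZ945 sdCAMs and MG was smaller and not called (-0.28, SE 0.12; adjusted p = 0.0831, edgeR), and it passed without tdT- BLZ945 F1 (adjusted p = 0.0346, edgeR).

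Hpgd was higher in tdT- sdCAMs than in microglia. It stood at 518, 562, 520.2, 489.7 and 419.9 CPM in MG CTL and 467, 633, 579.9, 614 and 439 CPM in MG BLZ945. The tdT- libraries held 649, 674, 909, 919 and 554 CPM in CTL and 930.0, 885, 644, 1002 and 789.8 CPM in BLZ945 mice. Both tdT- groups were higher in 5 of 5 brains, counted as pairs of libraries, although 1 CTL sdCAM library fell within the MG range. The log2 fold change was 0.57 (SE 0.15; adjusted p = 0.00791, edgeR) in CTL and 0.65 (SE 0.15; adjusted p = 0.00254, edgeR) in BLZ945 mice. The tdT+ libraries F2, F3 and M2 held 528, 513 and 391 CPM, of which M2 was below all MG libraries and the other two were within the MG range. All 3 lay below all tdT- libraries of either treatment. Against tdT- BLZ945 sdCAMs the log2 fold change was -0.85 (SE 0.20; adjusted p = 0.177, edgeR), with lower values in 3 of 3 brains. Against tdT- CTL sdCAMs it was -0.64 (SE 0.20; adjusted p = 0.381, edgeR). The difference from tdT- BLZ945 sdCAMs was called by DESeq2 (adjusted p = 0.00669) and in the model of all 23 libraries (adjusted p = 0.0296, edgeR).

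**Figure D2:**
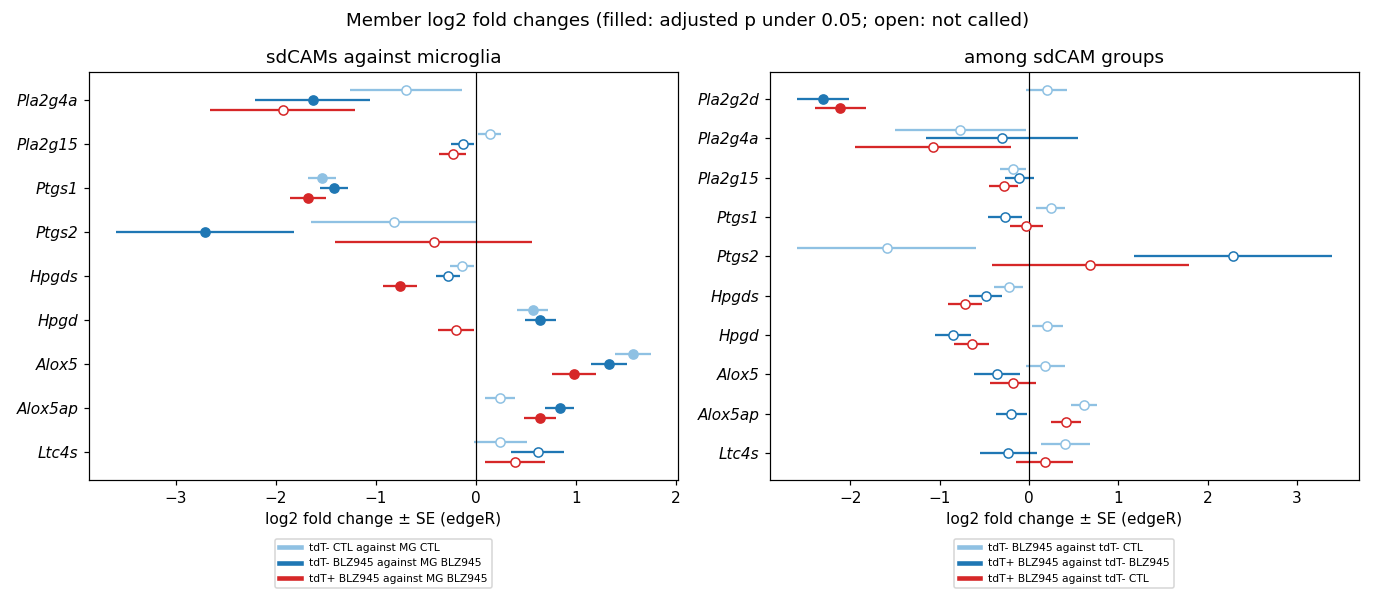
Log2 fold changes with SE (x axis) from edgeR for the genes on the y axis, filled where called. On the left, sdCAMs against MG without Pla2g2d, whose MG libraries are near 0: Ptgs1 was lower and Alox5 higher in all 3 comparisons. On the right, comparisons among sdCAM groups: Pla2g2d at -2.31 and -2.11 held the only filled points.

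Of the 3 leukotriene genes, Alox5, which encodes 5-lipoxygenase, was higher in sdCAMs in all 3 comparisons. It stood at 31.0, 36.1, 47.1, 41.5 and 40.4 CPM in MG CTL and 50.1, 54.5, 37.9, 59.5 and 58.1 CPM in MG BLZ945. It stood at 104, 112, 112, 128 and 124 CPM in tdT- CTL, at 105, 86.5, 154, 183 and 121 CPM in tdT- BLZ945 and at 116, 64.6 and 128 CPM in tdT+ sdCAMs. No sdCAM library reached down to the MG range. The difference was 2.97-fold in CTL mice (log2 1.57, SE 0.18; adjusted p = 6.54e-07, edgeR) and 2.52-fold for tdT- sdCAMs of BLZ945 mice (1.33, SE 0.18; adjusted p = 5.25e-06, edgeR). For tdT+ sdCAMs it was 1.98-fold (0.98, SE 0.22; adjusted p = 0.00186, edgeR). Neutrophils, which the Ly6G- gate of the sort is meant to leave out, and mast cells are known for Alox5 too. The 5 neutrophil markers (S100a8, S100a9, Ly6g, Retnlg, Cxcr2) summed to 0 to 28.1 CPM in MG, and in sdCAM libraries to at most 74.2 CPM in tdT- BLZ945 F1, with 2 of Ly6g, Retnlg and Cxcr2 at 0 in each group. The sum in tdT- BLZ945 F1 was all Retnlg, and S100a8 and S100a9 reached at most 2.97 and 0.757 CPM in tdT- BLZ945. In MG BLZ945, S100a8 and S100a9 reached 14.9 and 13.2 CPM, with Retnlg at most 0.0838 CPM. The 5 mast cell markers (Cpa3, Tpsb2, Cma1, Mcpt4, Fcer1a) were all at 0 in MG CTL, tdT- CTL and tdT+ libraries and summed to at most 0.838 CPM elsewhere. The part of neutrophils and mast cells in the Alox5 level was not tested.

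Alox5ap, which encodes the 5-lipoxygenase-activating protein, was called higher in sdCAMs of BLZ945 mice. In CTL mice it was not called. It stood at 237, 260.2, 206, 234 and 183 CPM in MG CTL and at 225, 287, 223, 209 and 188 CPM in MG BLZ945. In sdCAMs it stood at 237, 225, 319.8, 224 and 313 CPM in tdT- CTL, at 362, 508, 425, 343 and 373 CPM in tdT- BLZ945 and at 357, 381 and 323 CPM in tdT+. The tdT- CTL libraries overlapped MG CTL, whereas all sdCAM libraries of BLZ945 mice lay above all MG libraries and above all tdT- CTL libraries. Against MG BLZ945 the log2 fold change was 0.84 (SE 0.15; adjusted p = 1.39e-04, edgeR) for tdT- and 0.64 (SE 0.16; adjusted p = 0.00503, edgeR) for tdT+ sdCAMs.

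The effect of depletion and repopulation itself was read from BLZ945 against CTL libraries of one sort, which come from different animals. In microglia, none of the 9 genes tested was called by edgeR, 1 had an unadjusted p under 0.05, and 0.408% of 11264 genes were called. Pla2g2d did not pass the filter on low counts there. The 1 gene was Alox5, at 52.0 ± 8.70 CPM (SD, n = 5) after BLZ945 and 39.2 ± 6.03 CPM (SD, n = 5) in CTL, with a log2 fold change of 0.40 (SE 0.15; adjusted p = 0.269, edgeR) and overlapping groups. In tdT- sdCAMs none of the 10 was called by edgeR, where 0% of 13076 genes were called and 697 had an unadjusted p under 0.05. Alox5ap was the only member of the 10 with an unadjusted p under 0.05 there, with a log2 fold change of 0.62 (SE 0.15; adjusted p = 0.433, edgeR) and no overlap of the groups. DESeq2 called Alox5ap (adjusted p = 0.0295) among 56 genes. Against tdT- CTL, tdT+ sdCAMs showed an Alox5ap log2 fold change of 0.42 (SE 0.17; adjusted p = 0.605, edgeR). The difference between the BLZ945 effects in tdT- sdCAMs and microglia was not called for any of the 10 (0.0394% of 12697 genes were). Its value was 0.60 (SE 0.21; adjusted p = 0.381, edgeR) for Alox5ap. For Pla2g2d it was 4.34 (SE 1.73; adjusted p = 0.461, edgeR), which rests on the 10 counts of MG CTL M1 and was 1.73 without that library.

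Ltc4s, the synthase of leukotriene C4, had means of 156 ± 28.4 and 159 ± 55.2 CPM (SD, n = 5 each) in MG CTL and MG BLZ945. The means were 184 ± 80.8 CPM (SD, n = 5) in tdT- CTL, 243 ± 87.4 CPM (SD, n = 5) in tdT- BLZ945 and 209 ± 65.1 CPM (SD, n = 3) in tdT+ sdCAMs. All neighbours in this order overlapped. In BLZ945 mice Ltc4s was higher in the tdT- sdCAMs of 5 of 5 brains, with a log2 fold change of 0.62 (SE 0.26) that was not called (adjusted p = 0.0764, edgeR). With the brain as a block it was 0.62 and called (adjusted p = 0.0157, edgeR), and it was also called without MG F2 or without tdT- F1 (adjusted p = 0.0180 and 0.0456, edgeR). DESeq2 called it too (log2 fold change 0.67; adjusted p = 0.0408), and over all alternatives its adjusted p ran from 0.0157 to 0.277.

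Levels can be ranked between genes only per length of transcript, taken here as the union of a gene's exons in GENCODE M21. On the scale of CPM per kb, Hpgd held rank 1 of the 10 in every group, at 284 to 505. Ptgs1 held rank 2 in MG, at 224 in CTL and 242 in BLZ945 mice, and rank 5 or 6 in sdCAMs, at 75.5 to 89.8. Alox5ap held rank 2 in each sdCAM group, at 186 to 283.1, and Ltc4s at rank 3, at 182 to 240.1. Alox5 itself was lower than both, at 25.1 to 31.7 in sdCAMs and 9.56 to 12.7 in MG. Pla2g2d held rank 5 in tdT- sdCAMs, at 80.8 and 92.2, and rank 8 in tdT+ sdCAMs, at 18.7. These lengths count every annotated exon, and the annotation may not be that of the deposited table.

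**Figure D3:**
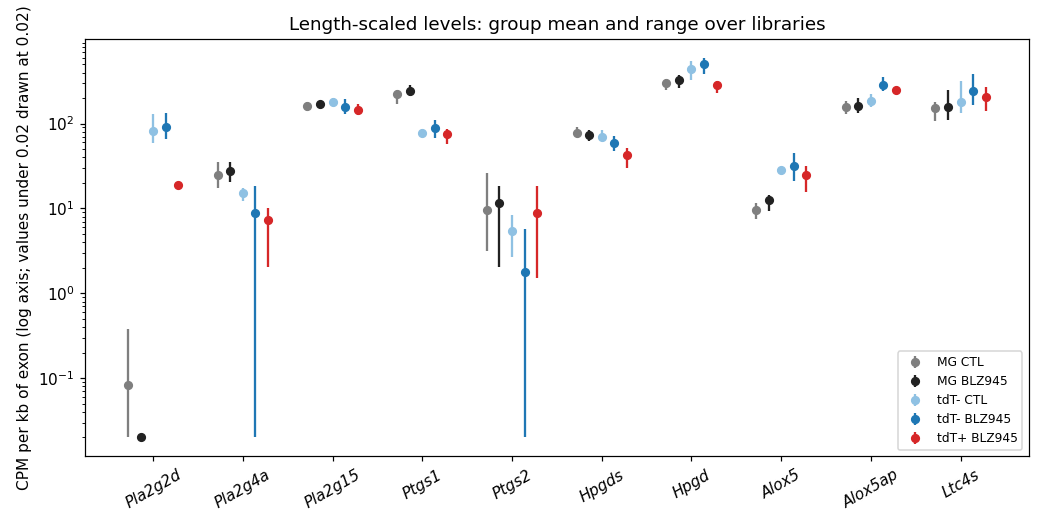
Levels per kb of exon (y axis, log scale, values under 0.02 drawn at 0.02) for the 10 genes (x axis), as group means with the range over libraries. Hpgd is the top gene of each group, and Pla2g2d spans the widest distance, from 0 in MG BLZ945 to 92.2 CPM per kb in tdT- BLZ945.

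Of the 45 pairs of the 10 genes, 12 had a Pearson's r of at least 0.7 in size across the 10 MG libraries and 3 across the 10 tdT- libraries, and the median size of r was 0.48 and 0.29. Each set of libraries holds both treatments, and the values of a pair come from 1 library and share its depth. The MG pairs named first are among the strongest, and all 3 tdT- pairs of that size are named. In MG, Pla2g4a and its chromosomal neighbour Ptgs2 had r = 0.84 (Spearman's rho 0.782) on the log2(CPM + 1) scale, and 0.75 without the 2 libraries farthest from the Pla2g4a median. Both ran against Alox5ap, with r = -0.86 for Pla2g4a and -0.88 for Ptgs2 (rho -0.855 for each), and -0.78 and -0.73 without the 2 farthest libraries. Alox5ap and Ltc4s had r = 0.84 (rho 0.770), and 0.56 without the 2 farthest. Single libraries stood out in these genes together. MG CTL M2 was the highest of its group in Pla2g4a and Ptgs2 and the lowest in Alox5ap and Ltc4s. MG BLZ945 F2 was the lowest of its group in Pla2g4a and Ptgs2 and the highest in Alox5ap and Ltc4s. The part of cell make-up in these correlations was not tested. Across the 10 tdT- libraries, r was 0.75 for Alox5ap with Ltc4s and -0.705 for Pla2g15 with Alox5ap. It was 0.71 for Pla2g4a with Ptgs2, where tdT- BLZ945 F2 was low in both. Ptgs1 and Alox5 had r = 0.699 in the tdT- libraries, just under 0.7, and 0.32 in MG. Pla2g2d and Hpgd had a smaller r of 0.61 in the tdT- libraries, and the tdT+ libraries were low in both.

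**Figure D4:**
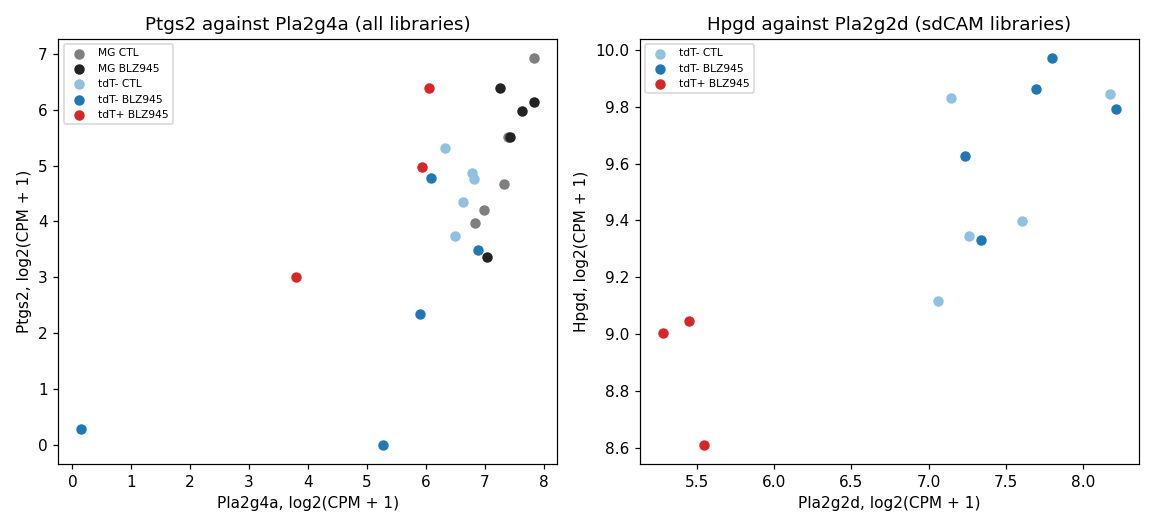
Each point is a library, coloured by group, on log2(CPM + 1) axes. On the left, Ptgs2 (y axis) against Pla2g4a (x axis) in the 23 libraries, with tdT- BLZ945 F2 at the lower left. On the right, Hpgd (y axis) against Pla2g2d (x axis) in the 13 sdCAM libraries, where the 3 tdT+ libraries lie at the lower left.

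Among 5011 genes with an average of at least 5 log2 CPM, the genes most like each member over the 13 sdCAM libraries were listed by Pearson's r. They are the top of a wide search, and the r that such a search alone would reach was not tested. For Alox5ap, whose CTL and BLZ945 libraries did not overlap, the first was Ptgds, the lipocalin-type prostaglandin D2 synthase (r = 0.92, rho 0.819, and 0.89 without the 2 farthest libraries), followed by Ifitm2 and Tma7. For Ltc4s they were Foxp1 (r = 0.93, rho 0.912), Mtarc2 and Ang, and for Ptgs1 they were Med4 (r = 0.94, rho 0.912), Nceh1 and Bin1. For Pla2g15 they were Ehd4 (r = 0.90, rho 0.819), Sirpa and Dab2. For Pla2g2d they were Cd209b, Sgce and Xlr, whose r of 0.93, 0.92 and 0.91 rested on the tdT+ libraries, since r was 0.21, 0.29 and 0.45 in the 10 tdT- libraries. For Hpgd they were Cd300a, Pla2g2d and Wdsub1, at 0.83 each, but at 0.66, 0.61 and 0.52 in the 10 tdT- libraries. For Pla2g4a they were Aggf1, Ezh1 and Rbmx, of which Ezh1 went from 0.96 to 0.28 without the F2 libraries.

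A wider list of 42 other genes of these pathways put the members in context. Of the genes tested, 9 of 25 were called between tdT- sdCAMs and MG in CTL mice (8 higher, 1 lower), against 25.6% of all genes (15.3% higher, 10.3% lower). In BLZ945 mice 8 of 25 were called for tdT- sdCAMs (7 higher, 1 lower), against 32.4% of all genes (18.3% higher, 14.1% lower), and 8 of 29 for tdT+ sdCAMs (7 higher, 1 lower), against 25.2% (14.6% higher, 10.6% lower). With both directions together, these BLZ945 shares were near those of all genes. The 8 calls for tdT- BLZ945 sdCAMs became 5 to 11 on leaving out 1 library, with 5 without tdT- BLZ945 F1. Pla2g7, which encodes the platelet-activating factor acetylhydrolase, had the lowest p of all genes tested in each of the 3 comparisons. It stood at 6.03 to 13.7 CPM in MG and 780.1 to 1666 CPM in sdCAM libraries, with log2 fold changes of 7.31 (SE 0.25; adjusted p = 9.85e-15, edgeR), 7.19 (SE 0.25; adjusted p = 2.18e-14, edgeR) and 6.73 (SE 0.26; adjusted p = 7.16e-15, edgeR). Fpr2, a receptor for formyl peptides and lipoxin A4, was at most 0.426 CPM in MG and 6.87 to 25.5 CPM in sdCAM libraries, and was called in each of the 3. Plaat3, a phospholipase and acyltransferase, was at 11.8 to 19.6 CPM in MG and 24.5 to 55.5 CPM in sdCAM libraries. Dpep2, a dipeptidase that converts leukotriene D4, was at most 0.689 CPM in MG and 1.70 to 8.01 CPM in tdT+ libraries. The tdT- libraries overlapped tdT+, at 0.162 to 1.85 CPM in CTL and 0.325 to 2.25 CPM in BLZ945 mice. Dpep2 was not called between tdT+ and tdT- BLZ945 sdCAMs (adjusted p = 0.760, edgeR).

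Ptgds was called higher in the 3 sorts of sdCAMs, with log2 fold changes of 4.73 (SE 0.56; adjusted p = 1.03e-06, edgeR) in tdT- CTL, 6.61 (SE 0.61; adjusted p = 2.38e-08, edgeR) in tdT- BLZ945 and 6.13 (SE 0.60; adjusted p = 2.76e-08, edgeR) in tdT+. It stood at 0.620 to 9.80 CPM in MG, 118 to 252 CPM in tdT- CTL, 266 to 1188 CPM in tdT- BLZ945 and 279.7 to 477 CPM in tdT+ libraries, highest in tdT- BLZ945 F2, where Alox5ap was highest too. Fibroblasts of the leptomeninges, which the CD45+ CD11b+ gate is meant to leave out, also make this enzyme. The 5 fibroblast markers (Col1a1, Dcn, Lum, Col3a1, Pdgfra) summed to at most 1.20 CPM in MG, 18.5 to 32.7 CPM in tdT- CTL, 8.57 to 51.6 CPM in tdT- BLZ945, with the highest in F2, and 16.4 to 20.2 CPM in tdT+ libraries, with Col3a1 at 0 in tdT+. Their part in the Ptgds level was not tested.

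Between BLZ945 and CTL microglia, 1 of 19 genes of the wider list was called, against 0.408% of all genes. It was Ptger3, the EP3 receptor of prostaglandin E2, at 9.18, 9.10, 5.90, 4.61 and 3.68 CPM in MG CTL and 1.00, 0, 1.53, 0.177 and 0.423 CPM in MG BLZ945. The groups did not overlap, and Ptger3 fell by 3.36 on the log2 scale (SE 0.66; adjusted p = 0.0408, edgeR). No gene of the list was called in 6 of the 10 fits that left out 1 library (MG BLZ945 F1, M1 or M2, or MG CTL F1, F2 or M1), nor in the model of all 23 libraries. The 5 endothelial markers (Cldn5, Flt1, Pecam1, Slco1a4, Ly6c1) summed to 19.1 to 28.6 CPM in MG CTL and 4.95 to 20.6 CPM in MG BLZ945, none at 0. Endothelial cells are outside the CD45+ CD11b+ gate, and their part in the Ptger3 level was not tested. None of the 27 genes of the wider list that were tested was called by edgeR among the sdCAM groups, with 2 or 3 at an unadjusted p under 0.05 per comparison.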

How the data were processed

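Sorted cells were profiled by bulk RNA-seq of 23 mouse libraries, grouped by their titles. The authors deposited raw counts per gene symbol, and per the labels their tools were bcl2fastq 2.20, STAR 2.7.11a, featureCounts 2.0.6 and DESeq2 1.46.0. The labels name the SMART-Seq mRNA LP kit. The study aligned its bulk libraries to mm10 or GRCm39, and which of them was used here, and how strand and multi-mapping reads were handled, was not given in the sources used here. Of the genes in the table, 9482 had no count in any library. In GENCODE M21, exons of Alox5ap, Ltc4s and Ptgs1 share bases with an unnamed gene on the other strand, and none of these is listed in the table.

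From the counts, edgeR 4.0.16 (R 4.3.3; filterByExpr, TMM, quasi-likelihood test, Benjamini-Hochberg over all genes tested) was fitted to the 20 MG and tdT- libraries, all 23, the 10 MG or the 13 sdCAM libraries, as the comparison needed. All 10 members were to be named, with fold, SE and adjusted p only at an unadjusted p under 0.05. Of the wider list, at most 4 called genes per comparison, those with the lowest p, were to be named. The members and lists were chosen with earlier results of these data known. MG and sdCAM libraries of one name come from the same animals by their library names. Their mean correlation of deviations was 0.0815 to 0.131 per pair of groups, and it was 0.0689 between tdT- and tdT+ BLZ945 sdCAMs. Across treatments only the number is shared (-0.00584 to 0.0706). No 2 libraries looked like one library deposited again (smallest chi-square over genes, 15.7 per gene). On simulated counts, 32% of 2-fold and 64% of 4-fold changes were recovered for tdT- CTL against MG CTL (12697 genes), 12% and 49% for tdT+ against tdT- BLZ945 (13076 genes), 13% and 52% for tdT+ against MG BLZ945 (13790 genes), and 77% and 97% for MG BLZ945 against MG CTL (11264 genes). In the simulation only a small part of the genes was raised, and all others were equal between groups. Between sorts the data hold many more calls, so the shares for those comparisons may not carry over. Alternatives were DESeq2 1.42.0, RLE factors, other filters, other sets of libraries, the replicate block and leaving out each library. The printed SD and SE include the spread between libraries. Summed levels of the microglial and oligodendrocyte marker lists are not reported here.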

Additional observations from a re-analysis of the deposited data

Results flagged for a closer look

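Across the 10 genes, 5 levels stood apart from the other libraries of their group by Dixon's test on log2(CPM + 1), out of 39 gene and group combinations tested, where chance gives about 1 in 20. Pla2g2d was at 0.854 CPM in MG CTL M1, with the other MG CTL libraries at 0.0766 CPM or 0. Pla2g4a was at 0.108 CPM in tdT- BLZ945 F2, the library of 1 animal, with the others between 37.6 and 117 CPM. Pla2g15 was at 484 CPM in MG BLZ945 F3, below 521 to 534 CPM in the others. Ptgs1 was at 669.9 CPM in MG CTL M2, below 877 to 964 CPM. Ltc4s was at 326 CPM in tdT- CTL F3, above 134 to 165 CPM.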

How the results depend on the processing

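For 30 single values, 518 refits gave 493 on the same side of the threshold with the same direction, 11 that lost a call, 14 that gained one and 0 reversals. Members called between tdT- BLZ945 sdCAMs and MG numbered 7 and went to 4 when each library had to hold at least 10 counts, where only 7 members were tested, and ranged from 5 to 9 when leaving out 1 library. The 4 calls between tdT- CTL sdCAMs and MG became 5 with only the groups compared and without the BLZ945 libraries of 1 animal (Pla2g4a added), and 3 when each library had to hold at least 10 counts, where Pla2g2d was not tested. The 5 calls between tdT+ sdCAMs and MG became 6 with no filter, with only the groups compared, with the replicate block and without the libraries of 1 animal (Pla2g4a added), and 4 with at least 10 counts, where Pla2g2d was not tested. Between tdT+ and tdT- BLZ945 sdCAMs the 1 call became 2 with DESeq2 and with the model of all 23 libraries (Hpgd added), and 0 with the replicate block. Between tdT+ and tdT- CTL sdCAMs the 1 call became 2 with DESeq2 and with all 23 libraries (Hpgds added), and the 0 calls of the BLZ945 effect in tdT- sdCAMs became 1 with DESeq2 (Alox5ap). With the replicate block, the pairing by animal changed the calls named in the report for Pla2g2d, Pla2g4a and Ltc4s and no other member's call. With only the groups compared, the calls of Pla2g4a and Ptgs2 between tdT- BLZ945 sdCAMs and MG were lost (adjusted p = 0.158 and 0.0947, edgeR), and with DESeq2 that of Pla2g4a (adjusted p = 0.0576) was lost and one of Ltc4s gained (adjusted p = 0.0408). The number of all genes called moved by over 1.5 times in several comparisons under one or other alternative: 4113 became 2738 with only the groups compared for tdT- BLZ945 against MG, 46 became 12 to 238 for MG BLZ945 against CTL, 0 became 29 and 56 for tdT- BLZ945 against CTL, 27 became 6 to 133 for tdT+ against tdT- BLZ945, 37 became 21 to 181 for tdT+ against tdT- CTL, and 5 became 0 to 94 for the difference of effects. The cause was not tested. In the comparison of tdT+ with tdT- BLZ945 sdCAMs, 12% of simulated 2-fold changes over all genes were recovered.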
